A study of Mus musculus with 12 samples.

Results

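The genes described here encode the proteins of the cytosolic ribosome. They were taken from the expression table by symbol: names starting with Rpl or Rps and a digit, plus Rplp0, Rplp1, Rplp2 and Rpsa, without pseudogene symbols, the S6 kinases and Rps19bp1. This gave 87 genes, of which 75 had a mean normalised read count of at least 10 over the 12 libraries and were kept, 31 of the small and 44 of the large subunit, among 11484 genes tested in all. The other 12 lay below that mean: Rpl30 (9.22), Rpl38, Rpl29, Rps13, Rpl24 and Rpl23a (8.13) just under it, Rpl3l and Rps4l below 1, and Rpl26, Rpl10l, Rpl39l and Rps27rt at 0 in every library. Just inside it were Rps28 (mean 10.9), Rpl36a (12.04) and Rps29 (12.04).

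RNA sequencing was done on total RNA of mouse leukaemia cells of BALB/c bone marrow carrying mutant CEBPA, a myeloid transcription factor, and mutant CSF3R, the receptor of granulocyte colony-stimulating factor. The cells were kept for 24 h with both drugs together (the combination), with 2 nM GSK-LSD1, which blocks the histone demethylase LSD1 (KDM1A), with 50 nM ruxolitinib, which blocks the tyrosine kinases JAK1 and JAK2, or with the solvent DMSO, 3 libraries each. All 4 groups share the strain, the mutant genes and the medium, IMDM with 20% fetal bovine serum. The labels do not say how the mutant genes were introduced, which promoter drives them, whether the cells are 1 clone, or whether the 3 libraries of a treatment are separate cultures. P-values therefore measure the spread between these libraries, which may be technical.

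Each cytosolic ribosome holds a single copy of most of its proteins, and the proteins of both subunits are made in matched amounts, imported into the nucleolus and built onto the ribosomal RNA as it is processed. Surplus proteins are degraded, and the free pair Rpl5 and Rpl11 with 5S ribosomal RNA binds MDM2, the inhibitor of p53. The mRNAs of these genes usually start with a pyrimidine tract (the TOP motif) through which mTOR and LARP1 set their translation, a step that mRNA levels do not show. In bone marrow, loss of 1 copy of several of these genes causes Diamond-Blackfan anaemia.

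Depth hardly differed between libraries, as the sums of deposited read units ran from 8260995 to 8528400. Of 9 markers of the neutrophil lineage, 8 were detected in all 12 libraries, and Camp stayed below 2 in each. Their summed level was 24131 to 26269 with the combination, 15384 to 16651 with GSK-LSD1, 15205 to 20300.3 with ruxolitinib and 12701 to 13451 with DMSO, and most of it came from Mpo and Mmp8. Other markers of that list went the other way with GSK-LSD1: Ms4a3 had 124 to 151, against 319 to 355 with DMSO, Prtn3 had 1198 to 1312, against 2003 to 2204, and Elane had 72.8 to 82.9, against 134 to 144. Sums of B cell and T cell markers stayed below 15. Erythroid markers summed to 124 to 254 with the combination, 131 to 141 with GSK-LSD1, 271 to 316 with ruxolitinib and 240.1 to 284 with DMSO, with all 4 globin genes of the 8 listed at 0. Sums of the megakaryocyte and the stromal lists were between 1805 and 2317 and between 2914 and 3866, most of which came from Itga2b and Pecam1, while Cxcl12 and Cdh5 were listed at 0. Their part in the results below was not tested, and in bulk RNA fewer cells of a type and less RNA per cell cannot be told apart. Combination replicate 3 and ruxolitinib replicate 2 stood apart from their replicates, the second by the highest median of the members (given below). In combination replicate 3 the members Rpl13, Rpl7a and Rpsa were over 1.5 times both other replicates and Rpl22l1 was below them by as much, out of 49 members with a mean of at least 100. Over all 8671 genes of that level, 6 were above and 31 below by this measure in that library.

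Levels of the members spanned more than 3 orders of magnitude. Compared per kb of transcript, the highest was the stalk protein gene Rplp1 at 22133 normalised reads per kb (mean of 12 libraries), followed by Rpl4 at 13815 and Rpl8 at 13639. Rps6, the S6 kinase substrate, had 92.8 per kb, the 5S ribonucleoprotein members Rpl5 and Rpl11 had 53.9 and 18.3 per kb, and Rpl26 was listed at 0 in all 12 libraries. Since ribosomes need these proteins in near equal numbers, the sequences of the genes were compared. Ribosomal protein genes have many processed pseudogenes. The share of a transcript's 100-base stretches found at no other annotated gene was 100% for Rpl22, 94.9% for Rpl4 and 70.00% for Rplp1. It was 16.4% for Rps6, 40.3% for Rpl11 and 1.63% for Rps27, but 52.8% for Rpl5 and 63.2% for Rpl26, which are low or at 0 as well. Over the 75 members this share and the level per kb had a Spearman correlation of 0.648, and over all 87 genes it was 0.461. With 50-base stretches these values were 0.544 and 0.386. They are descriptions across genes that share the same libraries, and the 75 members were themselves chosen by level. By 50-base stretches, the 21 genes with under 25% unique sequence had a median of 74.4 reads per kb, the 50 genes between 25% and 75% had 397, and the 16 genes above had 548. How the authors' counting treated reads that match several places is not given in the sources used here, and its part in these levels was not tested. Levels of different members are therefore not read as amounts of mRNA below, and results rest on the same gene between treatments.

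**Figure D1:**
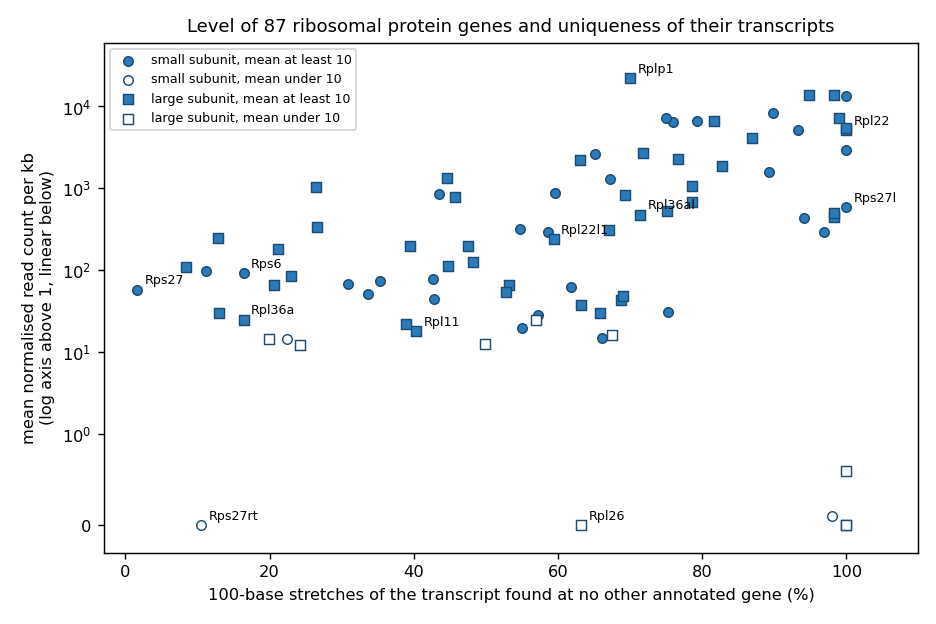
Mean normalised read count per kb of transcript over the 12 libraries (vertical, log axis above 1) against the share of 100-base stretches of the transcript found at no other annotated gene (horizontal, percent), for all 87 genes. Rpl22 lies at 100% with a high level, Rps27 at 1.63% lies low, and Rpl26, Rps27rt and 2 paralogs lie at 0.

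The coding sequences of a gene, its retrocopy and its paralog show how close such genes are. The first 60 coding bases (GENCODE vM21, GRCm38) are given for Rps27, a small subunit protein with a zinc finger (gene at chr3:90212522-90213651, minus strand), Rps27rt (chr9:114982366-114982739, minus strand) and Rps27l (chr9:66946086-66949516, plus strand), a paralog known as a p53 target, then for Rpl36a (chrX:134585654-134588062, plus strand) and its paralog Rpl36al (chr12:69182731-69184083, minus strand). Capitals mark bases that differ from the first gene of each set.
Rps27: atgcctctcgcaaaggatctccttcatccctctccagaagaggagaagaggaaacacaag
Rps27rt: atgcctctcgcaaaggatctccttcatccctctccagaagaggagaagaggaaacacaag
Rps27l: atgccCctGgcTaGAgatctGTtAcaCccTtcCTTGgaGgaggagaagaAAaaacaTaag
Rpl36a: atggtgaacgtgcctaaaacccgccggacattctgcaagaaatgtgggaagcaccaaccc
Rpl36al: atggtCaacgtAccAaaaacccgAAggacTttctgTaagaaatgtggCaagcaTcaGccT
Rps27rt is the same as Rps27 over all 252 coding bases, whereas Rps27l shares 76.2% and Rpl36al shares 87.7% of its coding bases with the parent gene. Per kb of transcript, Rps27 had a mean level of 58.1 normalised reads and Rps27rt was listed at 0, against 588 for Rps27l. Likewise Rpl36a had 24.9 per kb, against 476 for Rpl36al. Reads of Rps27 and Rps27rt cannot be told apart over the coding sequence, so values of Rps27 are uncertain. Of the other paralogs, Rpl7l1 (64.8% of aligned coding bases shared with Rpl7) had 508 per kb against 2708 for Rpl7, and Rpl22l1 (72.7%) had 239.5 against 5118 for Rpl22. Rpl3l had 0.603 per kb against 66.3 for Rpl3, and the testis-type paralogs Rpl10l and Rpl39l were listed at 0 against 109 for Rpl10 and 448 for Rpl39.

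Among the members with the highest mean normalised counts, not corrected for length, were Rpl4, Rpl8, Rplp1 and Rps3. Rpl4, a large subunit protein at the exit tunnel, had 20260.3, 20316 and 22855 with the combination, 20550.2, 19681 and 20026 with GSK-LSD1, 21588, 23622 and 20927 with ruxolitinib, against 21812, 21320.4 and 22008 with DMSO. Rpl8, which sits near the peptidyl transferase centre, had 10098, 10474 and 12345 with the combination, 11254, 10269.5 and 10243 with GSK-LSD1, 12353, 13750.3 and 11986 with ruxolitinib, against 12155, 11683 and 12670.1 with DMSO. In both genes ruxolitinib replicate 2 was the highest of all 12 libraries. Rplp1 had 10080.1, 11052 and 9520.2 with the combination, 10428, 9671 and 10618 with GSK-LSD1, 11797, 14328 and 10959 with ruxolitinib, against 10919, 11219.8 and 11939 with DMSO. The small subunit gene Rps3, at the mRNA entry, averaged 10253 over all libraries.

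Short windows around the transcription start are given for 4 of the members with a call, given below, that held with every library left out (RefSeq, GRCm38.p6, 25 bases before the annotated start and 20 after). They are Rpl27 at chr11:101442220-101442264 on the plus strand, Rpl7l1 at chr17:46782637-46782681 on the minus strand, Rpl14 at chr9:120571492-120571536 on the plus strand and Rpl37 at chr15:5116588-5116632 on the plus strand. Rpl4, the member with the highest mean, at chr9:64173362-64173406 on the plus strand, is shown for comparison. Capitals mark the longest run of at least 5 pyrimidines near the start.
Rpl27: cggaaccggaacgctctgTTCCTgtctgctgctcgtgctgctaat
Rpl7l1: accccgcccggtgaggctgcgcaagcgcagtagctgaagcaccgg
Rpl14: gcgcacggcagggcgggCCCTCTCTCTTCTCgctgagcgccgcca
Rpl37: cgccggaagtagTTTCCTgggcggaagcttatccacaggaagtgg
Rpl4: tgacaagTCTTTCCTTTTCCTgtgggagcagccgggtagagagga
Rpl14 has a run of 14 pyrimidines across the annotated start, Rpl27 a run of 5 just before it, and Rpl7l1 none. Windows of 250 bases before to 50 after the start were found for 58 of 75 members (69 windows). A C at the annotated start followed by 4 pyrimidines was present in 12 of them, 17.4%, against 2.51% of all windows and 0 of 73 windows of mitochondrial ribosomal protein genes. Within 5 bases of the annotated start it was present in 43.5% of member windows, 23.3% of the mitochondrial ones, 20.1% of those of tested genes and 18.3% of all windows. On both strands of the windows, CCGGAAG was found in 34.8% of member windows, 34.2% of the mitochondrial ones, 18.3% of those of tested genes and 8.86% of all windows, and CTTTCC in 47.8%, 34.2%, 26.5% and 26.6% of the same sets. CACGTG, the E-box that MYC binds, was found in 11.6% of member windows, 9.59% of the mitochondrial ones, 10.2% of those of tested genes and 7.15% of all. These matches describe the sequences and do not show that a factor acts there.

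All members together took 1.69 ± 0.108% of the library total with the combination, 1.60 ± 0.0748% with GSK-LSD1 and 1.83 ± 0.123% with ruxolitinib, against 1.70 ± 0.033% with DMSO (SD, n = 3 each). The ranges were 1.62 to 1.81% with the combination, 1.54 to 1.69% with GSK-LSD1, 1.72 to 1.96% with ruxolitinib and 1.66 to 1.73% with DMSO. All 3 treated ranges overlapped that of DMSO. The median member, as a log2 difference from the mean of the DMSO libraries, was -0.13, -0.11 and -0.05 with the combination, -0.08, -0.17 and -0.14 with GSK-LSD1, and 0.06, 0.14 and 0.01 with ruxolitinib, against 0.01, -0.03 and 0.02 in the DMSO libraries themselves. All 6 libraries with GSK-LSD1 were below all 6 without it by this median, and ruxolitinib replicate 2 was the highest. The separation did not hold over the 49 members with a mean of at least 100, where combination replicate 3 was at 0.01 and GSK-LSD1 replicate 1 at -0.03, against -0.002 in ruxolitinib replicate 3 and -0.05 in DMSO replicate 2. The medians of all tested genes stayed between -0.01 and 0.01 in the same libraries.

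**Figure D2:**
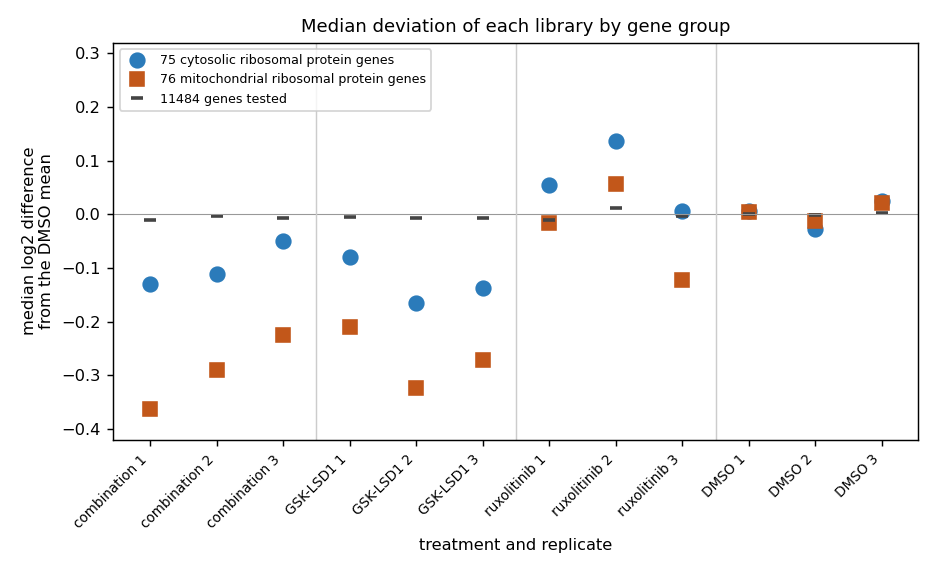
Median log2 difference from the DMSO mean (vertical) in each of the 12 libraries (horizontal, by treatment and replicate) for the 75 members (circles), 76 mitochondrial ribosomal protein genes (squares) and all 11484 genes tested (dashes). The 6 libraries with GSK-LSD1, alone or in the combination, lie lowest for both gene groups.

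With GSK-LSD1 alone against DMSO, 8 of 75 members were lower and 0 were higher at an adjusted p under 0.05 (limma with Benjamini-Hochberg adjustment over all 11484 genes). Of all genes tested, 15.5% were lower and 17% were higher. In either direction it was 32.5% of all genes, so the members' 10.7% was below the background. At an unadjusted p under 0.05 the counts were 14 lower and 0 higher by the same tool, against 2396 lower and 2414 higher of all 11484 genes. The median member had a log2 fold change of -0.11 and 58 of 75 members were below 0, against a median of 0.00 over all genes. Of those that passed, 1 is of the small subunit (Rps27l) and 7 are of the large subunit, a split that was not tested. Of the 4 tested ribosomal protein-like paralogs, 3 were lower with GSK-LSD1 and 2 with the combination, at medians of -0.28 and -0.25. Of all genes, 15.5% and 21.8% were lower in these comparisons. Among the 8 tested parent genes 0 passed in either comparison, at medians of -0.10 and -0.14. The difference between paralogs and parents was not tested. Among the 27 members with at least 75% unique 100-base stretches, 3 were lower with GSK-LSD1, at a median of -0.07.

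Rpl27, a large subunit protein mutated in Diamond-Blackfan anaemia, had 97.2, 94.7 and 106 with the combination, 96.9, 101 and 106 with GSK-LSD1, 135, 161 and 105 with ruxolitinib, against 148, 155 and 156 with DMSO. Every library with GSK-LSD1 was below every DMSO library, while the ruxolitinib libraries spread from 105 to 161. The log2 fold change was -0.60 ± 0.13 with GSK-LSD1 against DMSO (SE, adjusted p = 0.00157) and -0.62 ± 0.13 with the combination against DMSO (adjusted p = 0.000725). Only 39.4% of its 100-base stretches are unique, with 6 pseudogenes sharing some of them. Rpl7l1, a paralog of Rpl7 found on precursors of the large subunit, had 1210.0, 1231 and 1213 with the combination, 1206, 1158 and 1285 with GSK-LSD1, 1379, 1421 and 1426 with ruxolitinib, against 1541, 1387 and 1429.9 with DMSO. The highest library with GSK-LSD1, at 1285, was below the lowest without it, at 1379. The log2 fold change was -0.26 ± 0.06 with GSK-LSD1 (adjusted p = 0.00223) and -0.25 ± 0.06 with the combination (adjusted p = 0.00167). Its transcript is 98.3% unique by 100-base stretches. Both calls held in both comparisons with each of the 12 libraries left out in turn, with adjusted p up to 0.00891 for Rpl27 and 0.0233 for Rpl7l1 in GSK-LSD1 against DMSO.

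The other 6 members lower with GSK-LSD1 each lost the call when particular libraries were left out. The paralog Rpl36al had 241, 198 and 212 with GSK-LSD1, against 299.9, 251 and 295 with DMSO, with no overlap of the groups (-0.38 ± 0.11, adjusted p = 0.0119). The call ended without GSK-LSD1 replicate 2 or DMSO replicate 1 or 3 (adjusted p up to 0.0697). The paralog Rps27l had 301, 264 and 236 with GSK-LSD1, against 369, 301 and 319 with DMSO, where the highest GSK-LSD1 library lay just under the lowest DMSO library (-0.31 ± 0.12, adjusted p = 0.0474). The call ended without GSK-LSD1 replicate 2 or 3, ruxolitinib replicate 3 or DMSO replicate 1 or 3 (adjusted p up to 0.222). Rpl34, a large subunit protein of low level here, had 17.98, 20.9 and 10.97 with GSK-LSD1, against 29.8, 25.01 and 29.7 with DMSO (-0.77 ± 0.25, adjusted p = 0.0224). GSK-LSD1 replicate 3 was the lowest, and the call ended without GSK-LSD1 replicate 3 or DMSO replicate 1 or 3 (adjusted p up to 0.145). Rpl31, near the exit tunnel, had 123, 106 and 109 with GSK-LSD1, against 135, 150.0 and 139 with DMSO (-0.33 ± 0.12, adjusted p = 0.0473), with no overlap. Its call ended without GSK-LSD1 replicate 2 or 3, ruxolitinib replicate 3 or DMSO replicate 1, 2 or 3 (adjusted p up to 0.153). Rpl8 (-0.20 ± 0.07, adjusted p = 0.0372) had no overlap between the groups either, and its call ended without GSK-LSD1 replicate 2 or 3 or DMSO replicate 1 or 3 (adjusted p up to 0.144). Rpl27a averaged 324 ± 11.3 with GSK-LSD1, against 379 ± 13.7 with DMSO (-0.22 ± 0.08, adjusted p = 0.043), and its call ended without combination replicate 2, GSK-LSD1 replicate 1, 2 or 3 or DMSO replicate 1, 2 or 3 (adjusted p up to 0.133). The count of 8 became 3 without GSK-LSD1 replicate 2, GSK-LSD1 replicate 3, DMSO replicate 1 or DMSO replicate 3, and 13 without ruxolitinib replicate 2. Over all settings tried it ran from 3 to 23. Among these 6, the calls of Rps27l, Rpl31, Rpl8 and Rpl27a also ended with length correction, and that of Rps27l with GC correction (limma adjusted p = 0.0589). With no filter on low values all but that of Rpl36al ended.

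**Figure D3:**
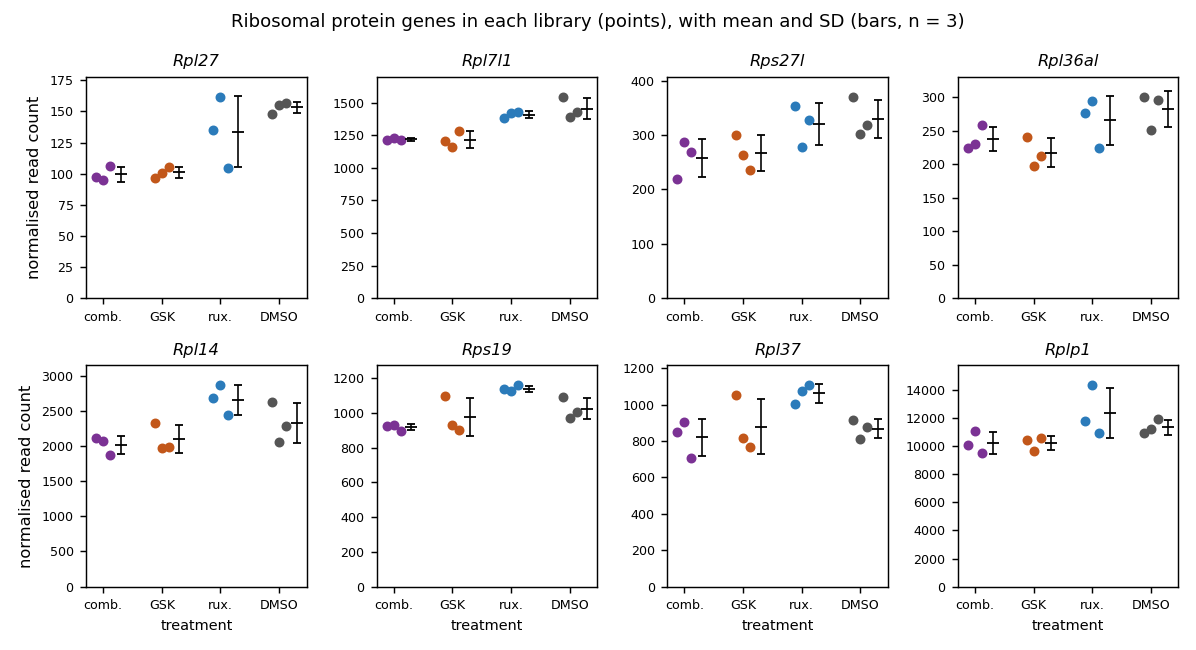
Normalised read count (vertical, from 0) of 8 members in each library (points) with mean and SD (bars, n = 3), by treatment (comb., the combination; GSK, GSK-LSD1; rux., ruxolitinib). For Rpl27 and Rpl7l1 all 6 libraries with GSK-LSD1 lie below all 3 DMSO libraries, and for Rpl14 and Rps19 the combination lies below ruxolitinib without overlap.

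With the combination against DMSO, 10 members were lower and 2 were higher. Of all genes tested, 21.8% were lower and 20.5% were higher, 42.3% in either direction, so the members' 13.3% and 2.67% were below the background. At an unadjusted p under 0.05 the counts were 17 lower and 2 higher, against 2954 lower and 2745 higher of all 11484 genes. The median log2 fold change was -0.09 and 53 of 75 members were below 0. Over the 34 members with a mean of at least 500 the median was -0.04, and over the 27 with at least 75% unique 100-base stretches it was -0.008, with 2 lower and 1 higher. The lower members are Rps7, Rps23, Rps25, Rps27l and Rps3a1 of the small subunit and Rpl7l1, Rpl27, Rpl31, Rpl34 and Rpl36 of the large subunit. Without both libraries that stood apart, 8 of the 12 calls were kept.

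Among small subunit members, Rps25, a protein used in initiation at internal ribosome entry sites, had 126, 136 and 106 with the combination, against 162, 158 and 245 with DMSO (-0.59 ± 0.20, adjusted p = 0.0191). The groups did not overlap, but DMSO replicate 3 was far above the other DMSO libraries, and the call ended without combination replicate 3 or DMSO replicate 3 (adjusted p up to 0.148). Rps7, a Diamond-Blackfan gene, had 43.6, 35.5 and 19.9 with the combination, against 52.6, 50.01 and 49.5 with DMSO (-0.67 ± 0.23, adjusted p = 0.0246). Combination replicate 3 was the lowest, and the call ended without combination replicate 3 or DMSO replicate 1, 2 or 3 (adjusted p up to 0.185). Rps23, a protein of the decoding centre, had 12.9, 12.8 and 14.9 with the combination, against 28.8, 19.00 and 20.8 with DMSO (-0.70 ± 0.25, adjusted p = 0.0313), near the lower limit of levels tested. Its groups did not overlap, and the call ended without combination replicate 1 or 2 or DMSO replicate 1 (adjusted p up to 0.152). Rps3a1 averaged 270.4 ± 41.5 with the combination, against 331 ± 29.7 with DMSO (-0.30 ± 0.11, adjusted p = 0.0339), with overlap, and the call ended without combination replicate 3 or DMSO replicate 2 or 3 (adjusted p up to 0.194). Rps27l averaged 258 ± 35.1 with the combination, against 329.8 ± 35.5 with DMSO (-0.36 ± 0.12, adjusted p = 0.0172), and its call ended without combination replicate 1 or DMSO replicate 1 (adjusted p up to 0.116).

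Among large subunit members, Rpl36 had 34.7, 28.6 and 35.8 with the combination, against 48.7, 43.01 and 64.4 with DMSO (-0.63 ± 0.19, adjusted p = 0.0112), without overlap. The call ended without combination replicate 2 or DMSO replicate 3 (adjusted p up to 0.0845). Rpl34 (-0.66 ± 0.25, adjusted p = 0.0379) and Rpl31 (-0.32 ± 0.12, adjusted p = 0.0445) were lower here as with GSK-LSD1 alone, against the same DMSO libraries. The call of Rpl34 ended without combination replicate 1 or 2 or DMSO replicate 1 or 3 (adjusted p up to 0.125), and that of Rpl31 without combination replicate 2, GSK-LSD1 replicate 2 or 3 or DMSO replicate 1, 2 or 3 (adjusted p up to 0.225). The count of 12 calls became 5 without DMSO replicate 1 and 5 without DMSO replicate 3. With length correction the calls of Rpl31 and Rps3a1 ended as well.

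The 2 higher members both had their highest combination value in replicate 3, and each call also ended without any of several other libraries. Rpl11 had 16.9, 14.8 and 33.8 with the combination, against 12.9, 9.002 and 12.9 with DMSO (0.78 ± 0.31, adjusted p = 0.0499). The other combination libraries were just above the DMSO libraries, and the call ended without combination replicate 3, GSK-LSD1 replicate 1, 2 or 3, ruxolitinib replicate 1 or 3 or DMSO replicate 1, 2 or 3 (adjusted p up to 0.314). Rps9, a small subunit protein that bears on decoding accuracy, had 5273, 5612 and 6515 with the combination, against 4868, 4815 and 5427 with DMSO (0.20 ± 0.08, adjusted p = 0.0439), with overlap. Its call ended without combination replicate 2 or 3, GSK-LSD1 replicate 1, 2 or 3 or DMSO replicate 1 or 2 (adjusted p up to 0.214). Rpl5, the partner of Rpl11, had 111, 131 and 109 with the combination, against 77.5, 106 and 123 with DMSO (0.22 ± 0.16, adjusted p = 0.271), with overlap. Rpsa, which is also known as a laminin receptor, had 78.4, 81.9 and 212 with the combination, against 87.4, 95.02 and 101 with DMSO, with 1 combination library far above all others (0.23 ± 0.25, adjusted p = 0.482). Of 18 Diamond-Blackfan genes tested, 3 were lower and 1 was higher with the combination, and 2 were lower and 0 higher with GSK-LSD1, at medians of -0.02 and -0.11. The lower genes are 16.7% and 11.1% of the list, below the 21.8% and 15.5% of all genes.

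With ruxolitinib against DMSO, 0 of 75 members passed in either direction by limma, where 1% of all genes were higher and 0.627% were lower. At an unadjusted p under 0.05, 10 members were higher and 0 were lower, against 1031 higher and 981 lower of all 11484 genes. The median log2 fold change was 0.06 and 50 of 75 members were above 0. The median was 0.02 without ruxolitinib replicate 2, 0.03 without DMSO replicate 1 and 0.007 with length correction. The smallest p was that of the stalk gene Rplp2, which had 1972, 2323 and 1943 with ruxolitinib, against 1866, 1280.3 and 1766 with DMSO (0.36 ± 0.11, adjusted p = 0.0824). Rplp0, the stalk base, had 9616, 10598 and 9251 with ruxolitinib, against 9020.1, 8464 and 8798 with DMSO (0.16 ± 0.06, adjusted p = 0.194). In both genes every ruxolitinib library was above every DMSO library. Without combination replicate 3 the count became 3 higher, Rplp2 and Rpl37 among them. Log2 fold changes of ruxolitinib against DMSO followed the GC content of transcripts across 11035 genes (Spearman 0.427). The members have a median GC content of 51.8% against 50.5% for all genes. With GC correction the count stayed at 0, as without it, and the part of GC content in the median was not tested.

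Set against ruxolitinib, the members that passed were all lower. With the combination they were 15 by limma, where 15.6% of all genes were lower, 16% were higher and 31.6% were either. At an unadjusted p under 0.05 it was 26 lower and 0 higher, against 2479 lower and 2341 higher of all 11484 genes. By the adjusted test the members' 20.0% is near the background of lower genes. The median log2 fold change was -0.15, and 60 of 75 members were below 0. With GSK-LSD1, 18 were lower, making 24.0% of the members, where 11.8% of all genes were lower, 13.6% were higher and 25.4% were either. Unadjusted, it was 30 lower and 0 higher, against 2139 lower and 2172 higher of all 11484 genes. The median was -0.20, with 68 of 75 below 0. Both comparisons share the ruxolitinib libraries, and ruxolitinib replicate 2 had the highest median of all. Without that library the counts were 7 with the combination and 11 with GSK-LSD1. The first count was also 9 when combination replicate 2 was left out. The second was 2 when GSK-LSD1 replicate 2 was left out and 4 when replicate 3 of that group was. Across genes, the Spearman correlation of the log2 fold change with transcript length was 0.143 in the first comparison and 0.254 in the second. It was 0.149 for GSK-LSD1 and -0.136 for ruxolitinib, each against DMSO. The members are short, with a median of 780 bases against 2778 for all genes. After length correction the counts were 7 and 4, and the part of length in these results was not tested. The shares of all genes given above are from the main fit on all 12 libraries, not from these other settings.

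Among members that passed, the widest falls were those of Rpl34, at -0.82 ± 0.25 with the combination (adjusted p = 0.0152) and -0.93 ± 0.25 with GSK-LSD1 (adjusted p = 0.00846). Its ruxolitinib libraries had 32.8, 35.96 and 26.7, above all libraries with GSK-LSD1. The calls ended without combination replicate 2 or ruxolitinib replicate 2 (adjusted p up to 0.0627) in the first comparison and without GSK-LSD1 replicate 3 (adjusted p up to 0.0692) in the second. With the combination Rps25 (-0.63 ± 0.20, adjusted p = 0.0172) and Rps7 (-0.62 ± 0.23, adjusted p = 0.0464) came next among those that passed, with overlap of the groups in both. The call of Rps25 ended without ruxolitinib replicate 2 (adjusted p up to 0.133), and that of Rps7 without combination replicate 2 or 3, GSK-LSD1 replicate 1, 2 or 3, ruxolitinib replicate 2 or 3 or DMSO replicate 1, 2 or 3 (adjusted p up to 0.278). With GSK-LSD1, Rpl27 (-0.38 ± 0.13, adjusted p = 0.0387) overlapped ruxolitinib, and its call ended without GSK-LSD1 replicate 1, 2 or 3 or ruxolitinib replicate 1 or 2 (adjusted p up to 0.237). With length correction these calls of Rps7 and Rpl27 ended as well.

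The calls that held with every library left out were 5 with the combination (Rpl14, Rps19, Rpl37, Rpl22 and Rpl7l1) and 1 with GSK-LSD1 (Rpl14). Rps19 and Rpl37 are named for this, after their values were seen. The call of Rpl22 ended with length correction (-0.13 ± 0.06, adjusted p = 0.113). Rpl14, a large subunit protein, had 2111, 2068 and 1869.6 with the combination, 2329.9, 1974 and 1986 with GSK-LSD1, against 2681, 2860.4 and 2437 with ruxolitinib, and 2623, 2057 and 2288 with DMSO. Every ruxolitinib library was above every library with GSK-LSD1, and the DMSO libraries overlapped both. The log2 fold change against ruxolitinib was -0.40 ± 0.08 with the combination (adjusted p = 0.000904) and -0.34 ± 0.08 with GSK-LSD1 (adjusted p = 0.00411). Rps19, the gene most often mutated in Diamond-Blackfan anaemia, had 924, 927 and 896 with the combination, against 1137, 1123 and 1157 with ruxolitinib (-0.31 ± 0.07, adjusted p = 0.00165), with little spread in either group. Rpl37, which contacts ribosomal RNA of the large subunit, had 850.0, 904 and 706 with the combination, against 1006, 1074 and 1105 with ruxolitinib (-0.38 ± 0.10, adjusted p = 0.00554). Rpl22, which is deleted in some T cell leukaemias, had 2299, 2374 and 2106 with the combination, against 2822, 2665 and 2492 with ruxolitinib (-0.23 ± 0.06, adjusted p = 0.00646). In none of these 3 genes did the groups overlap. Its paralog Rpl22l1 had 139.8, 147 and 82.5 with the combination, against 122, 115 and 135 with ruxolitinib (-0.06 ± 0.16, adjusted p = 0.826). The stalk genes Rplp1 (-0.26 ± 0.08, adjusted p = 0.018) and Rplp0 (-0.23 ± 0.06, adjusted p = 0.0125) were lower with GSK-LSD1. The first call ended without GSK-LSD1 replicate 2 or ruxolitinib replicate 2 (adjusted p up to 0.116), the second without GSK-LSD1 replicate 2 or 3 or ruxolitinib replicate 2 (adjusted p up to 0.0746). The call of Rplp1 also ended with length correction and with no filter on low values (limma adjusted p up to 0.221), while that of Rplp0 held in these settings. Rplp1 was also lower with the combination against ruxolitinib (limma adjusted p = 0.0132). That call ended without ruxolitinib replicate 2 (adjusted p up to 0.083). It also ended with length correction, with library weights, without both libraries that stood apart and in the fit on the libraries compared only.

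**Figure D4:**
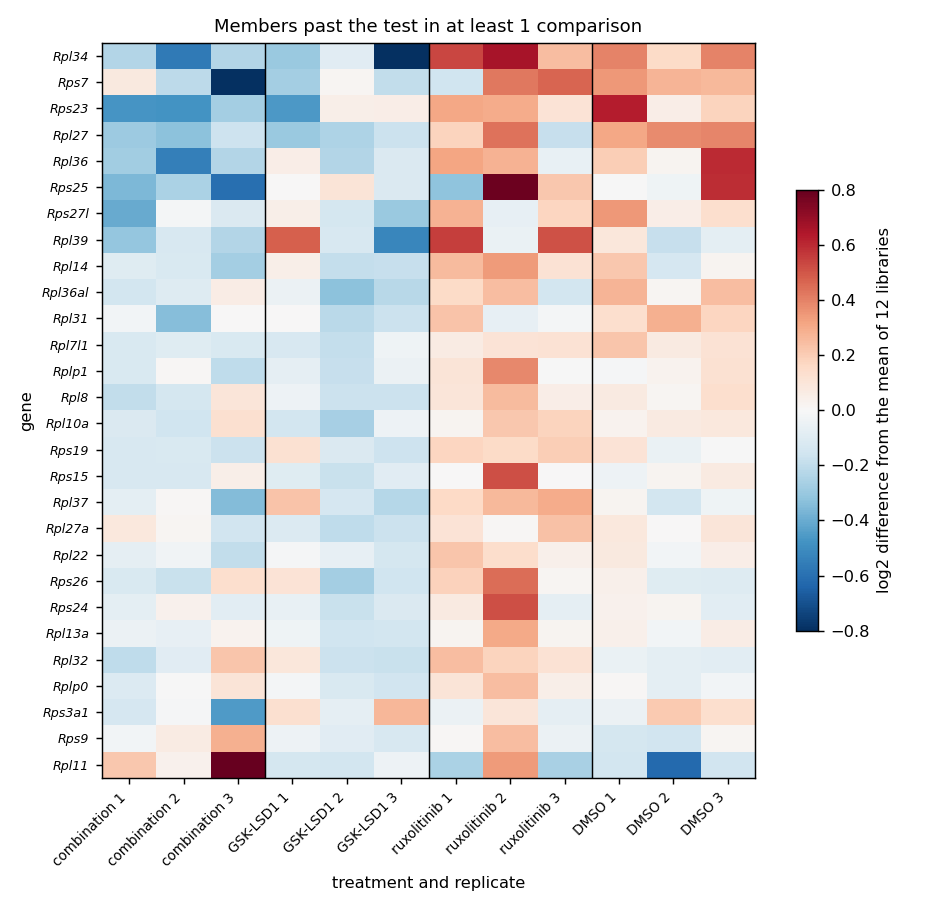
Log2 difference from the mean of the 12 libraries (colour) for 28 of the 29 members past the test in at least 1 of 7 comparisons (rows, ordered by their mean in libraries with GSK-LSD1) in each library (columns). Libraries with GSK-LSD1 are mostly blue and the others mostly red. This split follows from the choice of rows by tests on the same libraries, as 27 of the 29 members were lower in all their calls. Combination replicate 3 stands out for Rpl11, Rps7 and Rps3a1.

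Between the combination and GSK-LSD1 alone, 0 members passed by limma, where 1.05% of all genes were higher, 0.348% lower and 1.4% either. Without adjustment 3 members were higher and 2 lower at that threshold, against 650 higher and 757 lower of all 11484 genes. The median of the members was 0.06. It was 0.0096 without combination replicate 3. Leaving out replicate 1, 2 or 3 of GSK-LSD1 in turn gave 0.10, 0.03 and 0.04. The interaction asks whether the effects of the drugs add on the log2 scale. It gave 0 members by limma, where 0.00871% of all genes were higher and 0% lower. Without adjustment 0 members were higher and 5 lower, against 238 higher and 296 lower of all 11484 genes. Any difference among the 4 treatments was found for 19 of 75 members by the F-test, 25.3%, against 42.8% of all genes. At an unadjusted p under 0.05 it was 28 members, against 5807 of all 11484 genes. Leaving out GSK-LSD1 replicate 2 gave 10 members, leaving out replicate 3 of that group gave 9, and leaving out DMSO replicate 3 gave 11. The median residual SD on the log2 scale was 0.133 over the 34 members whose mean reached 500 and 0.0835 over all 4337 such genes.

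Other genes of the ribosome and its making were set beside the members. Of 76 mitochondrial ribosomal protein genes, 49 were lower and 0 higher with the combination against DMSO, and 44 were lower and 0 higher with GSK-LSD1, at median log2 fold changes of -0.30 and -0.27. The lower genes are 64.5% and 57.9% of the list, where 21.8% and 15.5% of all genes were lower. Ruxolitinib gave 0 in either direction, with a median of -0.03. Mrpl20, of the large mitochondrial subunit, averaged 708 ± 28.8 with the combination, against 999 ± 76.97 with DMSO (SD, n = 3; -0.49 ± 0.07, adjusted p = 7.32e-06). Mrps18b (-0.54 ± 0.08) and Mrpl50 (-0.50 ± 0.08) followed with the combination, and Mrpl18 (-0.39 ± 0.07) and Mrps26 (-0.38 ± 0.07) with GSK-LSD1. The median member of the cytosolic set moved less than the median mitochondrial gene in both comparisons, by these values; the difference between the sets was not tested.

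Genes that make ribosomal RNA and assemble the cytosolic ribosome were mostly lower with GSK-LSD1, alone or in the combination. Of 26 genes of pre-rRNA synthesis and processing, 24 (92.3%) were lower with the combination and 21 (80.8%) with GSK-LSD1, at medians of -0.47 and -0.34. In both, 0 were higher. Of all genes tested, 21.8% were lower with the combination and 15.5% with GSK-LSD1. The RNA helicase gene Ddx21 averaged 3481 ± 265 with the combination, against 5404 ± 68.5 with DMSO (-0.64 ± 0.06, adjusted p = 2.38e-08). Dkc1, the pseudouridine synthase (-0.60 ± 0.05), and Wdr43 (-0.59 ± 0.05) were lower with the combination, and Nolc1 (-0.57 ± 0.06) and nucleolin, Ncl (-0.47 ± 0.06), with GSK-LSD1. Of 14 genes that escort or import ribosomal proteins, 11 (78.6%) were lower with the combination and 12 (85.7%) with GSK-LSD1, at medians of -0.41 and -0.30. Grwd1, the chaperone of Rpl3, averaged 469.7 ± 29.01 with GSK-LSD1, against 663 ± 6.99 with DMSO (-0.50 ± 0.07, adjusted p = 1.61e-05). Heatr3, of Rpl5 import (-0.41 ± 0.07), and Rrs1 (-0.42 ± 0.07) were lower as well. Rpl3 itself, a member, had 94.9, 108 and 83.8 with GSK-LSD1, against 84.4, 105 and 93.1 with DMSO (0.02 ± 0.16, adjusted p = 0.936), with overlap.

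Other genes whose mRNAs are known to carry a TOP motif were lower in part: 6 of 18 passed with the combination and 4 with GSK-LSD1, with 0 higher in both and medians of -0.10 and -0.14. These are 33.3% and 22.2% of the list, where 21.8% and 15.5% of all genes were lower, and the difference was not tested. Those named by the rule were Nap1l1 (-0.46 ± 0.05 with the combination), the elongation factor gene Eef1d (-0.46 ± 0.06) and Npm1 (-0.56 ± 0.07), a nucleolar protein often mutated in leukaemia. Of 8 snoRNA host genes, 4 (50%) were lower with the combination and 3 (37.5%) with GSK-LSD1, where 21.8% and 15.5% of all genes were lower. Among them were Snhg5 (-0.61 ± 0.08 and -0.39 ± 0.08), Snhg3 (-0.59 ± 0.09 and -0.37 ± 0.09) and Snhg1 (-0.29 ± 0.07 and -0.21 ± 0.07). Of 14 genes that control translation, 7 (50%) were lower and 2 (14.3%) higher with the combination. With GSK-LSD1, 6 (42.9%) were lower and 1 (7.14%) higher. Of all genes tested, 20.5% were higher with the combination and 17% with GSK-LSD1. Larp1, which binds TOP mRNAs, averaged 4419 ± 101 with the combination, against 5886 ± 126 with DMSO (-0.41 ± 0.06, adjusted p = 2.04e-05), the cap-binding Eif4e was at -0.48 ± 0.08 and Eif4g1 at -0.36 ± 0.06, whereas the kinase gene Rps6ka1 was higher with GSK-LSD1 (0.29 ± 0.06, adjusted p = 0.00147). Of 9 genes of ribosome surveillance, 6 (66.7%) were lower with the combination and 2 (22.2%) with GSK-LSD1, the second near the 15.5% of all genes. With the combination they were led by the recycling factor Abce1 (-0.55 ± 0.06), Usp10 (-0.50 ± 0.06) and Ltn1 (-0.38 ± 0.09).

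Of the remaining ribosomal proteins that the name rule leaves out, Rack1, listed as Gnb2l1 and a signalling scaffold of the small subunit, had 16625 ± 782 with the combination, 16380.2 ± 1020.0 with GSK-LSD1, 18119.5 ± 193 with ruxolitinib, against 17152 ± 826 with DMSO. The fusion gene Fau (-0.23 ± 0.15 with GSK-LSD1 against DMSO) did not pass the test in any comparison with DMSO, nor did Rack1. Rps6, the substrate of the S6 kinases, had 87.3, 75.96 and 57.7 with the combination, 74.9, 80.6 and 83.8 with GSK-LSD1, 72.6, 107 and 76.1 with ruxolitinib, against 94.3, 78.02 and 89.1 with DMSO, with overlap of all groups.

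**Figure D5:**
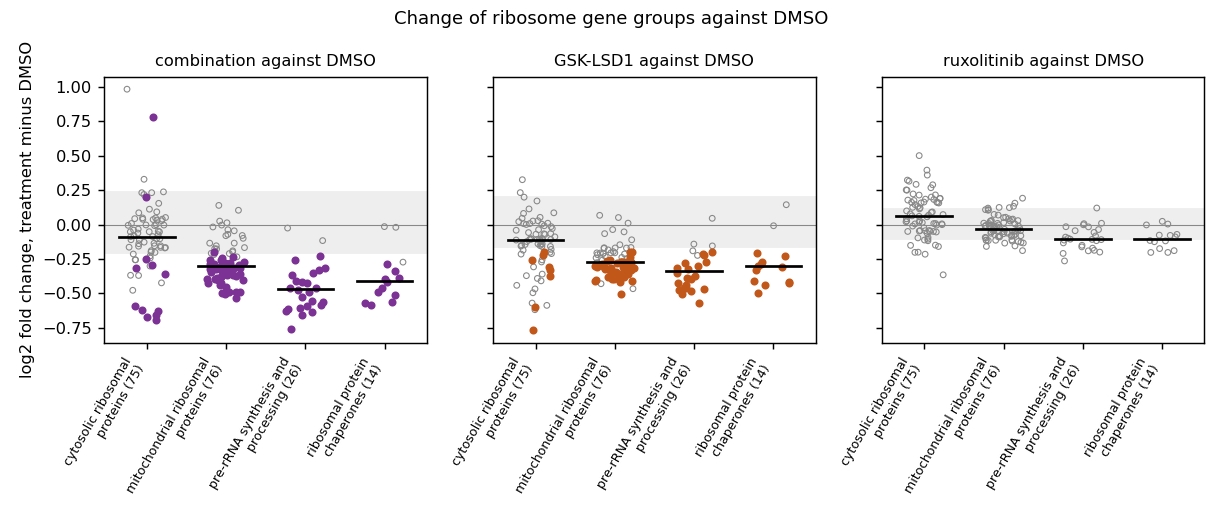
Log2 fold change against DMSO (vertical) of each gene of 4 groups (horizontal, with the number of genes), in a panel for each treatment. Filled points passed the test, open points did not, black lines are medians and the grey band spans the middle 50% of all tested genes. Pre-rRNA and mitochondrial ribosomal protein genes lie below 0 with the combination and GSK-LSD1, with medians from -0.47 to -0.27, and the cytosolic members lie closer to 0.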

How the data were processed

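Per the submitters' processing notes, STAR and DESeq2 and the builds mm10 and GRCm38 were used, without versions; the roles, the annotation, strandedness and the handling of reads that match several places are not given in the sources used here. The deposited values are a normalised signal, that is read counts over a factor for each library, with a constant of 1e-05 added that was taken off before use. Values of a library were whole multiples of 1 step, but because of the added constant no count test was run. Of 24411 entries 7367 were at 0 everywhere, and 27 symbols turned into dates stayed in the fit unnamed.

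Genes with a mean of at least 10 were tested, 11484 in all, with limma 3.58.1 (R 4.3.3; a variance trend, a mean per treatment, 8 residual degrees of freedom) on log2 of the value plus 1, so that fold changes of low genes are understated. P-values were adjusted by Benjamini-Hochberg over all genes, with a threshold of 0.05; log2 fold changes are given as treatment minus the group it is set against, ± SE, and other values as mean ± SD of 3 libraries. The procedure was checked on simulated data with 200 changed genes. The changes put in were larger than many of those called here and lay in genes with a mean of at least 50. Smaller changes and lower levels were not covered by the check. It used the same setting for the spread between replicates in every gene. The wider spread of the members was therefore not covered either (median residual SD of 0.133 against 0.0835 over all genes, at a mean of at least 500). Uniqueness of transcripts was computed from GENCODE vM21 on the principal coding transcript. Positions are from that annotation. Figures were drawn with matplotlib 3.10.9.

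The named genes are every member past the test against DMSO, the 3 widest changes in the other comparisons, the 5 highest means, the paralogs with their parent genes, and 10 genes of prior interest; 2 genes of this rule are not reported here. The members and lists were chosen with earlier results of these data known. Replicate numbers did not pair samples: over 18 pairs of same-numbered libraries, deviations from group means correlated from -0.148 to 0.150, and 1 pair was over 0.1. The alternatives tried were other pseudocounts, filters and scalings, quantile normalisation, library weights, corrections for GC content and length, a replicate block, fits on the libraries compared only, and fits without single libraries or without both that stood apart.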

Additional observations from a re-analysis of the deposited data

How the results depend on the processing

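No called result changed its direction in any setting; the median of the interaction, -0.01 and with 0 calls, was above 0 in some. With pseudocounts of 0.25 and 5, TMM scaling and median-of-ratios scaling without the members, no count of members moved by over 1.5 times. The share of all genes called in each changed setting, here and above, is not given. Shifts of these counts are therefore not read as particular to the members. With no filter on low values, the count of members past the test was 5 (12 as reported) for the combination against DMSO, 3 (8) for GSK-LSD1 against DMSO, 9 (18) for GSK-LSD1 against ruxolitinib and 8 (19) for any difference. A mean of at least 50 gave 7 for the combination against DMSO. That filter takes called members of lower level out of the fit, such as Rpl11 (mean 15.2), Rps23 (18.8), Rpl34 (23.5) and Rpl36 (43.2). No call in that comparison was lost by a member that stayed in. Quantile normalisation gave 16 for GSK-LSD1 against DMSO, 23 for the combination against ruxolitinib and 29 for any difference. Library weights gave 21 for GSK-LSD1 against DMSO, 1 for ruxolitinib against DMSO, 1 for the combination against GSK-LSD1 and 30 for any difference. GC correction gave 15 for GSK-LSD1 against DMSO. Length correction gave 4 for GSK-LSD1 against DMSO (median -0.066), a median of 0.007 for ruxolitinib against DMSO, and 7 for the combination against ruxolitinib (median -0.074), 4 for GSK-LSD1 against ruxolitinib (median -0.096) and 7 for any difference. Leaving out both libraries that stood apart gave 18 for GSK-LSD1 against DMSO, 2 for ruxolitinib against DMSO and 29 for any difference. Fits on only the libraries compared gave 23 for GSK-LSD1 against DMSO and 9 for the combination against ruxolitinib. Apart from the shift with a mean of at least 50, the cause of these shifts was not tested, except that fewer samples enter the last ones. With the replicate number as a block, although the numbers did not pair samples, GSK-LSD1 against DMSO gave 5, and 14 with the GC correction as well; other counts stayed within 1.5 times. With single libraries left out, the counts ran from 5 to 14 for the combination against DMSO, 3 to 13 for GSK-LSD1 against DMSO, 0 to 3 for ruxolitinib against DMSO, 7 to 22 for the combination against ruxolitinib, 2 to 22 for GSK-LSD1 against ruxolitinib and 9 to 24 for any difference, and were 0 for the combination against GSK-LSD1 and the interaction. Low levels limit genes such as Rpl11, Rps23 and Rpl34, whose normalised counts were below 50 in all 12 libraries.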
